A study of Rattus norvegicus with 23 samples.

Results

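The genes described here are 6 that are not usually counted among the known pacemaker genes: Rims2, Mapk10, Gsc, Tgm1, Olfml2b and Tex26. They were chosen by their normalized signal, because it was higher in the sinoatrial node region (SA) than in the left atrium (LA), the ventricles or the pulmonary vein (PV) on these same arrays, out of 16544 genes with a symbol. The SA values therefore describe the genes and carry no test. The tests below compare the other regions with each other, and the LA, ventricular and PV arrays in them also had a part in the choice.

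The samples were RNA from untreated male Wistar rats aged 8 to 11 weeks, with no difference in strain or treatment between the groups. LA was the atrium next to the pulmonary vein, LV a mass of the left ventricle that the methods cut into 3 pieces, RV the free wall of the right ventricle, SA the dissected node region of 2 rats per sample, and PV and PA the pulmonary vein and pulmonary artery. RV had 3 arrays and the other regions had 4 each, and the 7 ventricular arrays together are called V. All are whole tissue, in which fewer cells of a type and less RNA per cell cannot be told apart. The 23 arrays came from 12 rats in all, so that some arrays must share animals. Which ones do is not given in the sources used here. The methods state that SA was isolated separately, because of the time its dissection takes. SA may therefore also differ from the other regions in animals and handling. The other regions may come from the same rats, a pairing that the tests do not use. The fits take the arrays as independent, and p-values measure the spread between these samples.

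The sinoatrial node sets the heart rate. Its cells depolarize spontaneously through the interplay of hyperpolarization-activated channels, calcium channels and calcium released from internal stores, and it is densely innervated and rich in connective tissue. Muscle sleeves of atrial type extend into the pulmonary vein and can fire on their own, whereas the pulmonary artery wall is mainly smooth muscle and matrix. Of the 6 genes, Rims2 encodes a scaffold of the active zone, the site of regulated vesicle release. Mapk10 encodes JNK3, a stress-activated kinase, and Gsc encodes goosecoid, a paired-like homeobox transcription factor. Tgm1 encodes a transglutaminase that cross-links proteins, Olfml2b a secreted protein with an olfactomedin domain, and Tex26 a testis-expressed protein of which little is known.

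Each array gave a brightness per probe, and values below are the authors' normalized signals or log2(normalized signal + 1), on which folds of dim genes are understated. A probe was called well above background where the scanner software marked it so. Between 58.7% and 79.8% of the probes were well above background on an array, and 0 spots were saturated. The share was 72.7% to 79.8% on the 11 arrays in the first row of a slide and 58.7% to 69.4% on the 12 in the second row. LA had 3 of its 4 arrays in the first row, and SA and PV had 1 each. The SA label was checked on pacemaker genes. Of 14 measured genes of a pacemaker list, 6 were higher and 1 lower in SA than in LA, where 7.03% and 8.26% of all genes were, and 8 were higher and 0 lower than in V, where 12.3% and 15.8% were. The lower one was Gjc1, a gap junction gene (-0.40, adjusted p = 0.0125), and the node factors Isl1 (0.93, adjusted p = 0.187) and Tbx18 (-0.50, adjusted p = 0.0569) did not pass between SA and LA. Isl1, well above background on 1 SA array and 0 LA arrays, passed without LA replicate 2 (1.49, adjusted p = 0.00999), and Tbx18 passed in 6 of 35 alternatives. Hcn4, the main pacemaker channel, was at 10.34 ± 0.16 (SD, n = 4) in SA and 8.20 ± 0.60 in LA, a log2 difference of 2.14 (limma, adjusted p = 9.86e-05). Shox2, a transcription factor of the node, was 3.50 higher in SA than in LA (adjusted p = 3.06e-07). Shox2 was nearly as high in PV (11.03 ± 0.11) as in SA (11.40 ± 0.11). Hcn4 was 1.15 higher in SA than in PV (adjusted p = 0.0429), and 0.79 higher than in V (adjusted p = 0.0349), calls that were lost under several alternatives.

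The 6 genes did not share one pattern. Tgm1 was the member whose SA arrays lay above all arrays of each other region. Rims2 and Tex26 were high in SA and PV alike, Mapk10 was higher in LA than in SA, and Olfml2b was highest in PA. Gsc was near background everywhere. The mean was highest in SA for 4 of the 6, in LA for Mapk10 and in PA for Olfml2b. Over all 16089 genes tested, SA held the highest mean for 8.98%, a figure given beside the 4 of 6 only as a reference because SA values chose the members. For Mapk10 and Olfml2b the data go against a name such as sinoatrial node gene, unless it means higher than in the ventricles.

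**Figure D1:**
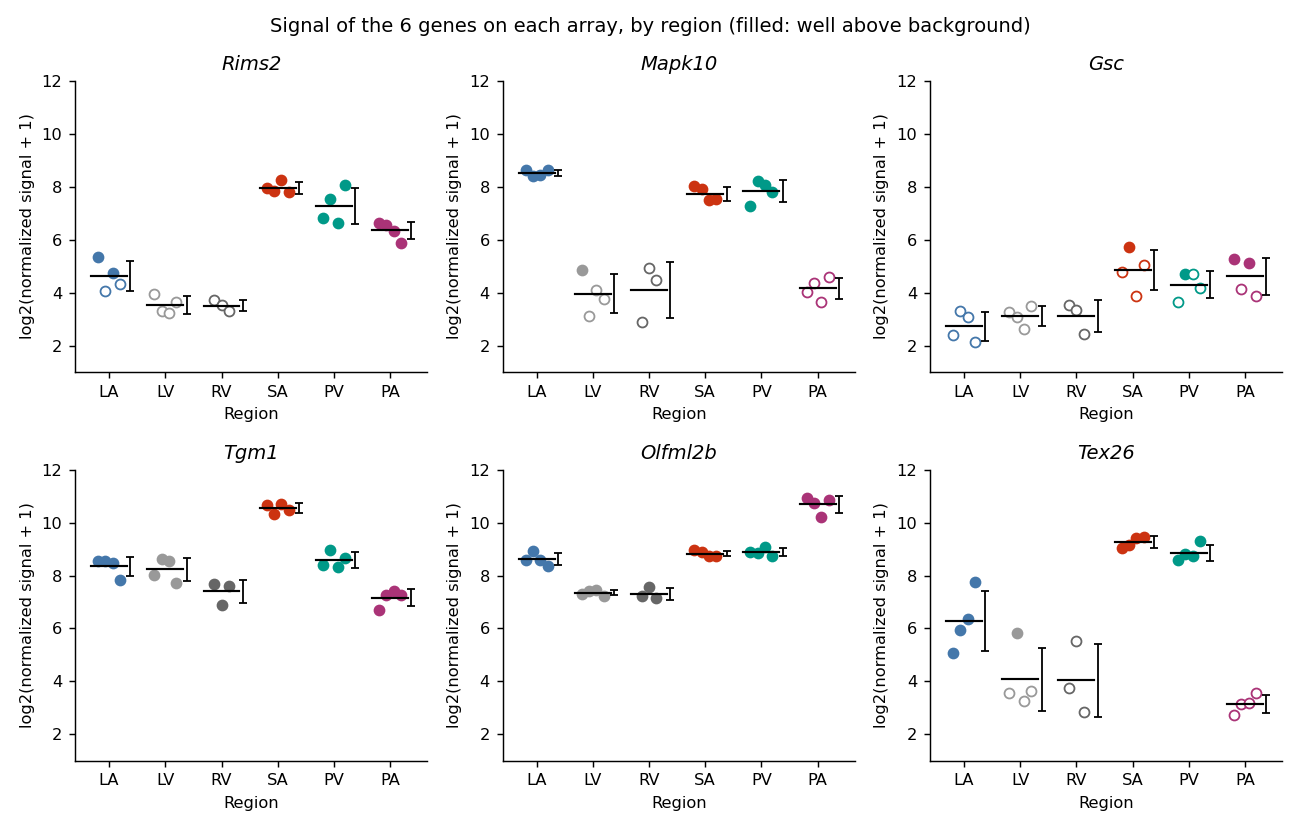
Signal of each gene on each of the 23 arrays, as log2(normalized signal + 1), by region, with the mean (line) and SD (bar). Filled points are well above background and open points are not. Tgm1 is set apart in SA, Mapk10 is high in LA, SA and PV, Olfml2b is highest in PA, and Gsc stays low throughout.

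Rims2 binds Rab3 on vesicles and holds calcium channels close to the site of release in neurons and endocrine cells. Its normalized signal on the SA arrays was 244.6, 228.8, 309.5 and 220.0. On the PV arrays it was 112.9, 187.7, 97.5 and 267.9, and on the PA arrays 98.0, 93.1, 79.1 and 58.6. It was 39.7, 15.8, 26.1 and 19.2 in LA and between 8.3 and 14.5 on the 7 ventricular arrays. SA and PV overlapped, since PV replicate 4 lay within the SA range and the other PV arrays below it, and SA lay above PA, LA and V without overlap. The ventricular arrays were all not well above background, and 2 of the 4 LA arrays were. All 7 ventricular values were also below 4 on the log2 scale, the filter that a gene had to exceed on at least 1 array to be tested, so that Rims2 was tested through the other regions alone and its differences from V are given with no test.

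On the log2 scale the SA mean was 7.96 ± 0.22, against 7.27 ± 0.67 in PV, 6.35 ± 0.33 in PA and 4.63 ± 0.56 in LA. SA was at least 8.97-fold above V, a bound that sets each dim ventricular array at the lowest signal marked well above background there. All other bounds below are of this kind. Among the comparisons without SA, PV exceeded LA by 2.64 (SE 0.29, limma, adjusted p = 8.69e-06) and was at least 5.56-fold above V. PA exceeded LA by 1.72 (SE 0.29, adjusted p = 4.87e-05) and was at least 2.94-fold above V. PA was 0.92 below PV (SE 0.29, adjusted p = 0.0126), a call that was lost without PV replicate 4, where the difference was -0.65 (adjusted p = 0.0622). LA exceeded V by 1.11, a dim value on both sides that gives no bound above 1-fold.

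A second Rims2 probe was much dimmer, at 29.4 to 37.5 in SA, 11.2 to 32.8 in PV and 9.4 to 15.9 in PA, and ran in the same order of regional means down to LA (5.6 to 9.2). It was well above background on 1 SA array and 1 PV array. The probe that gave the values above was the brighter on all arrays.

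The PV arrays also differed in neuronal transcripts. The summed signal of 14 measured genes of the 17 on an autonomic neuron list was 15372, 12583, 4190 and 33149 on PV replicates 1 to 4. PV replicate 4 was highest and PV replicate 3 lowest for both this sum and the brighter Rims2 probe. The dimmer Rims2 probe was also lowest on PV replicate 3 (11.2), but highest on PV replicate 2 (32.8), with 15.5 on PV replicate 4. The sum was 2643 to 3646 in SA, 4754 to 9021 in PA, 1495 to 2123 in LA, and 1772 to 2525 in LV. Of the 14 genes, 0 were higher and 9 lower in SA than in PV, where 0.783% of all genes were higher and 2.71% lower. Against LA, 2 were higher in SA and 0 lower (7.03% and 8.26% of all genes), Npy (2.48, adjusted p = 0.00477) and Gap43 (1.26, adjusted p = 0.000522). Against V, 3 were higher and 0 lower (12.3% and 15.8% of all genes), Npy, Uchl1 and Gap43. Elavl4 was the 1 gene of the list that the scanner software marked as above background on no array of SA. The part of nerve RNA in the Rims2 signal was not tested.

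The genes whose 6 regional means ran most like Rims2, by the root mean square difference of centered log2 means, were 3 beta-globin genes, Hbb-bs (0.46), Hbbl1 (0.53) and Hbb-b1 (0.56). These are near-identical copies and count as 1 signal rather than 3. Hbb-bs was at 11.66 ± 0.37 in SA, 11.02 ± 0.15 in PV, 9.89 ± 1.22 in PA, 9.47 ± 0.42 in LA and 7.80 ± 0.51 in LV. Beta-globin therefore moved over the regions in the same order as Rims2, and the part of blood in the Rims2 values was not tested.

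The other genes of the release machinery were followed as a list. Of 27 measured genes of a 29-gene list of active zone and vesicle release proteins, 0 were higher and 1 lower in SA than in LA (limma, adjusted p below 0.05), where 7.03% of all genes were higher and 8.26% lower. The median difference was 0.02, against 0.01 over all genes. The gene called was Rab3d, a vesicle GTPase, at -0.58 (adjusted p = 0.0140), a call lost with normexp background correction (-0.45, adjusted p = 0.0527) and without LA replicate 1 (-0.50, adjusted p = 0.0537). Against V, 2 were higher and 3 lower (12.3% and 15.8% of all genes), led by Rimbp2, the binding partner of Rims proteins, which was 2.45 lower in SA (SE 0.14, adjusted p = 8.98e-11). Against PV, 0 were higher and 2 lower (0.783% and 2.71% of all genes). In PV against LA, 4 were higher and 0 lower (6.99% and 6.51% of all genes), with a median of 0.13 against -0.03 over all genes. In PV against V, 6 were higher and 2 lower (15.6% and 18.3% of all genes), with a median of 0.12 against -0.09.

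Snap25, a SNARE protein of synaptic vesicle fusion, was 3.40 lower in SA than in PV (adjusted p = 0.00256, and 0.0877 with only the regions compared in the fit). It was 8.43 ± 1.56 in PV, 5.02 ± 0.24 in SA and 4.90 ± 0.60 in LA. The close relatives of Rims2 had their own profiles. Rims1 was 6.77 ± 0.60 in SA, 7.41 ± 0.26 in PV, 6.09 ± 0.40 in LA and 7.35 ± 0.42 in LV, and PV exceeded LA by 1.32 (adjusted p = 0.00309). Rims3 was brightest in LV (11.33 ± 0.13) and 0.66 lower in SA than in V (adjusted p = 0.000344). Rims4 lay between 6.93 and 7.77 in all 6 regional means.

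Mapk10 is the JNK gene with a restricted tissue distribution, whereas Mapk8 and Mapk9 are active in most cells. Its signal in LA was 395.1, 343.1, 349.8 and 398.2. In SA it was 261.1, 239.0, 180.1 and 185.1, and in PV 152.5, 296.5, 269.5 and 224.3. In PA it was 15.3, 19.7, 11.6 and 23.0, and on the ventricular arrays between 6.5 and 29.5. All LA arrays were above all SA and all PV arrays, SA and PV overlapped fully, and these 3 regions stood clear of PA, LV and RV. Of the 11 arrays of PA, LV and RV, 1 LV array was well above background.

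The LA mean of 8.54 ± 0.11 exceeded the SA mean of 7.75 ± 0.27 by 0.79. SA was at least 7.71-fold above PA and 3.71 above V on the log2 scale, or 2.88 with the dim ventricular arrays at their floor. In the tested comparisons, LA exceeded V by 4.50 (SE 0.33, limma, adjusted p = 2.95e-09), or by 3.67 with the dim ventricular arrays set at their floor, and PV exceeded V by 3.81 (SE 0.33, adjusted p = 3.29e-08), or by 2.98 with the floor. Ventricular values had a part in the choice of Mapk10, so its tests against V are partly fixed by that choice. PA was at least 13.3-fold below LA (adjusted p = 4.38e-09) and at least 8.25-fold below PV (adjusted p = 5.68e-08). PV was 0.69 below LA, which did not pass the test (adjusted p = 0.266), although it did with normexp background correction (-0.52, adjusted p = 0.0091). Mapk10 was high in the atrium, the node and the vein and low in the ventricles and the artery.

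The genes closest to it in profile were Oit3 (root mean square difference 0.20), Spock2 (0.31) and Parpbp (0.39). Spock2, a matrix proteoglycan, was 10.05 in LA, 10.21 in SA and 10.03 in PV and 5.87 to 6.30 in RV, LV and PA. Of the other JNK genes, Mapk9 had regional means between 10.35 and 10.55 and was called in no comparison, and Mapk8 had regional means between 8.80 and 9.28. Mapk8 was 0.45 lower in PV than in V (limma, adjusted p = 0.000695), a call that held in all 35 alternatives, and 0.26 higher in PA than in PV (adjusted p = 0.0427), a call lost in 9 of 35. Of 18 measured genes of a 20-gene JNK cascade list, 2 were higher and 0 lower in SA than in LA, against 7.03% and 8.26% of all genes. These were the scaffold Mapk8ip1 (0.41, adjusted p = 0.00256) and the phosphatase Dusp8 (0.47, adjusted p = 0.0161, lost without SA replicate 3 at 0.39 and 0.0661), and the list's median was 0.10. Against V, 0 were higher and 6 lower (12.3% and 15.8% of all genes), with the largest change in Map3k5, an upstream stress kinase (-1.68, adjusted p = 3.25e-07). One of the 6, Mapk8 (-0.25, adjusted p = 0.0467), lost its call in 23 of 35 alternatives. Against PV 0 were called in either direction, where 562 of all genes were. In the comparison of PV with LA, 4 were higher and 1 lower (6.99% and 6.51% of all genes), the lower one Mapk8 (-0.33, adjusted p = 0.0399, lost in 8 of 35 alternatives) and among the higher Jun at 1.39 (adjusted p = 0.0125), a call lost without PV replicate 4 (1.15, adjusted p = 0.0555) and with only the regions compared (adjusted p = 0.0687).

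The promoter of Mapk10 is shown because it was the one member promoter with the full cAMP response element TGACGTCA, the same on both strands, which 1.83% of 33469 RefSeq promoters of this length hold. It covers 250 bases before and 50 after the start at chr14:6802044-6802343 on the plus strand of GRCr8, with the element in capitals.
Mapk10: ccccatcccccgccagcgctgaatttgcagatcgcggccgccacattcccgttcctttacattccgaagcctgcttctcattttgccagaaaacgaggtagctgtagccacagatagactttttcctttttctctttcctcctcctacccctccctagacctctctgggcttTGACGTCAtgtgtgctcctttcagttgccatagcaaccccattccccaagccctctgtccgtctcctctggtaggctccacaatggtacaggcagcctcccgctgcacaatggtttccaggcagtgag

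Gsc acts in the embryo, where goosecoid marks the organizer and patterns the head. Its signal in SA was 26.7, 52.2, 13.8 and 31.7. It was 11.4, 24.9, 25.0 and 16.9 in PV and 37.9, 16.8, 34.3 and 13.7 in PA. In LA it was 4.3, 9.0, 7.4 and 3.4, and on the ventricular arrays between 4.4 and 10.7. SA, PV and PA overlapped, and all 3 lay above LA and V without overlap. Only 1 SA array, 1 PV array and 2 PA arrays were well above background, and 0 of the 11 LA and ventricular arrays were. Gsc entered the tests through its SA, PV and PA values alone, so that a difference from LA and V was built into its passing the filter.

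Since most arrays were dim on both sides, no fold or bound is given. On the log2 scale the mean was 4.86 ± 0.76 in SA, 4.61 ± 0.70 in PA, 4.30 ± 0.51 in PV and 2.73 ± 0.55 in LA, and none of the differences from LA and V is given a test. PA and PV differed by 0.32 (SE 0.40, limma, adjusted p = 0.548).

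Genes with the profile closest to that of Gsc were Bmp7 (0.22), Kcnt1 (0.26) and Ciart (0.31). The LA and ventricular values of Gsc in this ranking were not well above background on any array, so it only describes them. Bmp7, a bone morphogenetic protein, was 7.39 in SA, 6.92 in PA, 6.88 in PV and 4.97 in LA, and Kcnt1, a sodium-activated potassium channel, 8.24, 7.59, 7.76 and 5.70. Of 21 measured genes of a 25-gene list of paired-like homeobox factors, 3 were higher and 0 lower in SA than in LA, against 7.03% and 8.26% of all genes. Besides Shox2 and Uncx (0.79, adjusted p = 0.0484, lost in 24 of 35 alternatives, named after its value was seen), Prrx1, a mesenchymal factor, was 2.21 higher in SA than in LA (adjusted p = 3.30e-07) and had its highest mean in PA (13.88 ± 0.23). Gsc2, the closest relative of Gsc, was at 3.25 to 4.25 in the regional means and well above background on 3 of the 23 arrays.

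The Gsc promoter is given as the other homeobox case. It lies at chr6:129154826-129155125 on the minus strand of GRCr8 and holds 1 homeodomain core TAAT, read on the other strand as ATTA and set in capitals, a core that 60.6% of promoters hold on either strand. It also holds 1 TATAAA, which 14.2% do.
Gsc: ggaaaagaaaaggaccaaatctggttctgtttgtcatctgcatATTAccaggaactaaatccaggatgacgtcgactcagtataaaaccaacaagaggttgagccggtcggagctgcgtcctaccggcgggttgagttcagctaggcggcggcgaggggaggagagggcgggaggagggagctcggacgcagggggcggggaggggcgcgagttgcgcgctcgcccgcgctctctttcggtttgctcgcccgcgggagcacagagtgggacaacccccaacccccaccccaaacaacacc

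Tgm1 joins proteins of the cornified envelope in skin. On the SA arrays its signal was 1626.4, 1274.6, 1672.4 and 1436.0. It was 333.6, 498.9, 319.5 and 401.0 in PV, 372.2, 375.0, 354.2 and 225.1 in LA, and 256.8, 394.2, 376.1 and 211.7 in LV. RV gave 205.5, 117.2 and 196.3, and PA 102.7, 154.4, 171.6 and 152.7. Every array was well above background, and the lowest SA array was above the highest array of any other region. No other member had SA above PV without overlap, which 5.23% of all genes did.

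The SA mean of 10.55 ± 0.18 exceeded PV (8.58 ± 0.29) by 1.96, LA (8.35 ± 0.35) by 2.20, V by 2.73 and PA (7.17 ± 0.32) by 3.38. The difference between SA and PV was 1.35 on the arrays of the first row and 2.17 on those of the second. Between the remaining regions, PA was the low one. It was 1.41 below PV (SE 0.24, limma, adjusted p = 3.74e-05), 1.18 below LA (SE 0.24, adjusted p = 0.00026) and 0.65 below V (SE 0.21, adjusted p = 0.0118), the last not called without PA replicate 1 (-0.49, adjusted p = 0.0657). PV exceeded V by 0.77 (SE 0.21, adjusted p = 0.0077). PV and LA differed by 0.23 (SE 0.24, adjusted p = 0.61). LA was 0.53 above V with an adjusted p of 0.0559, which passed 0.05 with several other settings. LV was above RV on every array, by 0.83 (SE 0.25), but the adjusted p was 0.173.

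The gene nearest in profile was Wfdc11 (0.51), then Fstl4 (0.55) and Cyfip2 (0.56), so none ran as close to Tgm1 as Oit3 did to Mapk10. Fstl4, a follistatin-like gene, was 9.96 in SA, 9.45 in PV, 9.23 in LA and 7.46 in PA. Of 9 measured genes of a 12-gene list of transglutaminases and cornified envelope proteins, 0 were called between SA and LA, where 7.03% of all genes were higher and 8.26% lower, and 0 between SA and PV (0.783% and 2.71%), shares beside which 0 of 9 is no result. Against V, 3 were higher and 2 lower (12.3% and 15.8% of all genes). Tgm2, the tissue transglutaminase, was 0.43 higher in SA than in V (adjusted p = 0.0118) and had its highest mean in PA, 1.72 above PV (adjusted p = 1.80e-09), where Tgm1 had its lowest. Tgm3 was 0.85 lower in SA than in V (adjusted p = 0.0117), which was lost without SA replicate 1 (-0.73, adjusted p = 0.0526). Of keratinocyte markers, Krt5, Krt14 and Krt1 were measured, out of a list of 7. Their summed signal was 589 to 794 in SA, 513 to 956 in LA and 612 to 691 in PV, and the part of such cells in the Tgm1 signal was not tested.

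**Figure D2:**
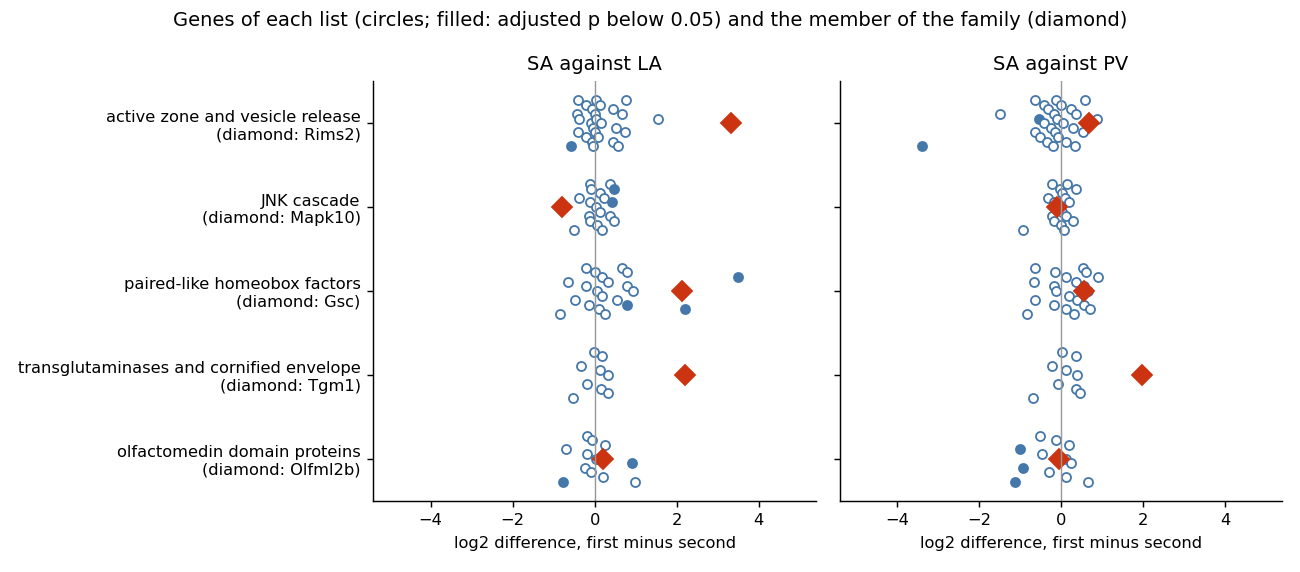
Difference of SA from LA (left) and from PV (right) on the log2 scale for 5 members (diamonds, no test) and for the measured genes of the list each belongs to (circles, filled where adjusted p is below 0.05). The place of the diamonds follows from the choice of the members. Among the circles, Shox2 (3.50) and Prrx1 (2.21) lie farthest right against LA and Snap25 (-3.40) farthest left against PV.

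Olfml2b is secreted and binds matrix glycosaminoglycans. Its signal in PA was 1946.5, 1691.3, 1196.0 and 1867.3. It was 493.8, 469.9, 428.4 and 425.0 in SA, 471.3, 467.4, 539.3 and 421.7 in PV, and 388.2, 487.4, 386.2 and 331.1 in LA. The LV arrays gave 159.0, 170.0, 172.7 and 148.3 and the RV arrays 147.4, 187.4 and 139.8. SA, PV and LA overlapped, all PA arrays were above them and all ventricular arrays below, and every array was well above background.

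PA exceeded V by 3.36 (SE 0.13, limma, adjusted p = 9.73e-15), LA by 2.06 (SE 0.14, adjusted p = 2.01e-10) and PV by 1.80 (SE 0.14, adjusted p = 1.72e-09). PV exceeded V by 1.56 (SE 0.13, adjusted p = 1.28e-08) and LA exceeded V by 1.30 (SE 0.13, adjusted p = 1.36e-07). Ventricular values had a part in the choice of Olfml2b, so its tests against V are partly fixed by that choice. PV and LA differed by 0.26 (SE 0.14, adjusted p = 0.274). SA differed from LA by 0.20, from PV by -0.06 and from V by 1.50. None of these Olfml2b calls changed in any alternative run.

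Smooth muscle markers were also highest in PA, with a summed signal over 7 of 7 genes of 723008 to 848998 in PA, 78191 to 113347 in PV, 51037 to 77125 in SA, 26340 to 32186 in LA, 27047 to 36182 in LV and 32723 to 35415 in RV. The ranges of LA and LV overlapped. Fibroblast markers, 5 of a list of 6, summed to 210940 to 248081 in PA, 135954 to 185849 in PV and 78131 to 134672 in SA, but of the 5 genes Lum and Col1a1 were higher and Pdgfra and Tcf21 lower in PA than in PV. Their part in the Olfml2b values was not tested. Adarb1, an RNA-editing enzyme (0.21), Ppp1r36 (0.21) and Dlg2 (0.24) had the profiles closest to Olfml2b. Adarb1 was 14.47 in PA, 12.87 in SA, 12.86 in LA and 11.21 in LV. Among 12 measured genes of a 12-gene list of olfactomedin domain proteins, 7 were higher and 1 lower in PA than in PV, where 29.7% of all genes were higher and 23.7% lower, and the list's median was 0.85 against 0.13 over all genes. Olfml1 exceeded PV in PA by 1.54 (adjusted p = 3.89e-07) and Olfml3 by 1.08 (adjusted p = 3.00e-06). Between SA and LA, Gldn was 0.91 higher (limma, adjusted p = 0.0278) and Olfml1 0.76 lower (adjusted p = 0.00663). The Gldn call was lost in 7 of 35 alternatives. Among these were the runs that left out any of LA replicates 2 to 4 or SA replicates 2 to 4, with differences down to 0.80. The Olfml1 call was lost with only the regions compared in the fit (adjusted p = 0.0954). Olfml2a lay between 8.22 and 9.04.

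Tex26 had 2 probes that disagreed. The brighter gave 519.6, 570.8, 691.4 and 699.2 in SA and 380.9, 445.7, 428.5 and 628.5 in PV. In LA it gave 32.8, 29.0, 81.9 and 214.7, and on the 11 LV, RV and PA arrays between 4.0 and 10.7, none of them well above background. SA and PV overlapped at the level of PV replicate 4, and the LA arrays were spread over a wide range below both. The other probe was between 3.9 and 59.9 on all arrays and had no such order, with its highest values on LA replicate 2, LV replicate 2 and RV replicate 2. It was the higher one on some LA, LV, RV and PA arrays and so raised the gene's value there.

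**Figure D3:**
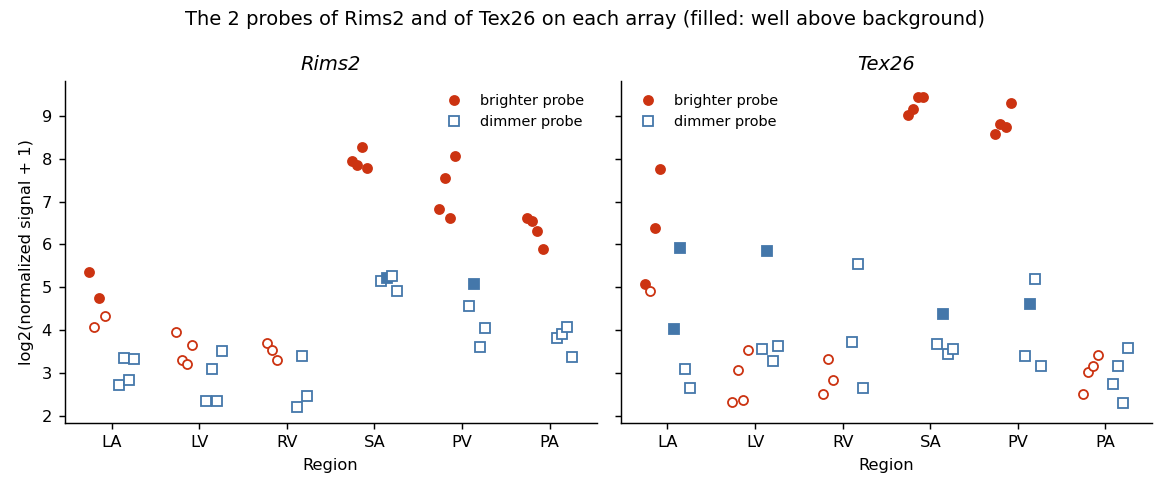
Signal of both probes of Rims2 (left) and of Tex26 (right) on each array, as log2(normalized signal + 1), by region. Filled symbols are well above background. The dimmer Rims2 probe has its regional means in the same order as the brighter one at a lower level, but not its PV arrays. The dimmer Tex26 probe does not rise in SA or PV.

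With the higher probe on each array, the SA mean was 9.27 ± 0.21, PV 8.86 ± 0.31, LA 6.28 ± 1.12, LV 4.08 ± 1.18 and PA 3.16 ± 0.34. SA was at least 22.1-fold above PA and, by the brighter probe alone, at least 22.2-fold above V. By the brighter probe, PV was at least 16.7-fold and LA at least 2.35-fold above V. In the fit of the higher probe, most values of V came from the probe that disagreed, and these differences were 4.80 (SE 0.52) and 2.23 (SE 0.52). By the brighter probe all V arrays lay below the filter, so the differences from V are given no test. PV exceeded LA by 2.57 (SE 0.58, limma, adjusted p = 0.00528). By the brighter probe, PA was at least 16.6-fold below PV and at least 2.34-fold below LA. All PA values lay below the filter, so these carry no test. PA and V were both dim and differed by -0.90, which turned to 0.18 when the probe with the highest mean stood for the gene.

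Its nearest genes in profile were farther away than for any other member, with RGD1559536 at 0.66, Hamp at 0.66 and Gsta2 at 0.73. Hamp, the iron hormone hepcidin, was 17.03 in SA, 16.77 in PV, 13.47 in LA, 11.41 in LV and 9.18 in PA. Gsta2, a glutathione transferase, was 7.69 in SA, 7.31 in PV and 6.72 in LA and 2.65 to 3.35 in RV, PA and LV.

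The Tex26 promoter is shown because it was the one member promoter with the bicoid-type core TAATCC. It lies at chr12:10641435-10641734 on the minus strand of GRCr8. In capitals are 1 CCAAT, which 37.5% of promoters hold on either strand, and 1 GGATTA, the other strand of TAATCC, the core preferred by bicoid-type homeodomains such as that of goosecoid, which 7.17% hold. The TAAT core is part of that match. These are matches of letters and no binding was measured.
Tex26: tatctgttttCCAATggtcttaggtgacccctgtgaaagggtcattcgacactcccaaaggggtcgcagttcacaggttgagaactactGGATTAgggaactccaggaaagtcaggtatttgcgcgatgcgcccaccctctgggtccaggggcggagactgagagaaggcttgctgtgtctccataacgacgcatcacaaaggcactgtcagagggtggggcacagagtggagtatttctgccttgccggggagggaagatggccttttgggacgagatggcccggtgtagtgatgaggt

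The counts that follow, unless stated, leave out the differences given no test above. These are those of Rims2 from V, of Gsc from LA and V and of Tex26 from V and PA. In PV against V, Mapk10, Tgm1 and Olfml2b were all called higher, where 15.6% of all genes were. In LA against V, Mapk10 and Olfml2b were called higher and Tgm1 was not (16.9% of all genes). Against LA, 2 of 5 were higher in PV (6.99% of all genes), Rims2 and Tex26. The choice of the members used LA, ventricular and PV values, so nothing is read from these calls. PA differed from LA in 4 of 4, 2 up and 2 down, where 52.1% of all genes differed, from PV in 4 of 5 (53.4%) and from V in 2 of 3 (58.4%), counts to be read with these high shares. Between LV and RV, limma called 0 members, where 0.522% of all genes were called, that is 84 genes, and 1727 at an unadjusted p below 0.05, Tgm1 among them. The 19 called results, in which those of Tex26 from V are still counted, all had the same direction within each row of arrays and within each slide. For most of them the arrays of the regions compared did not overlap, so that this direction could not have differed.

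**Figure D4:**
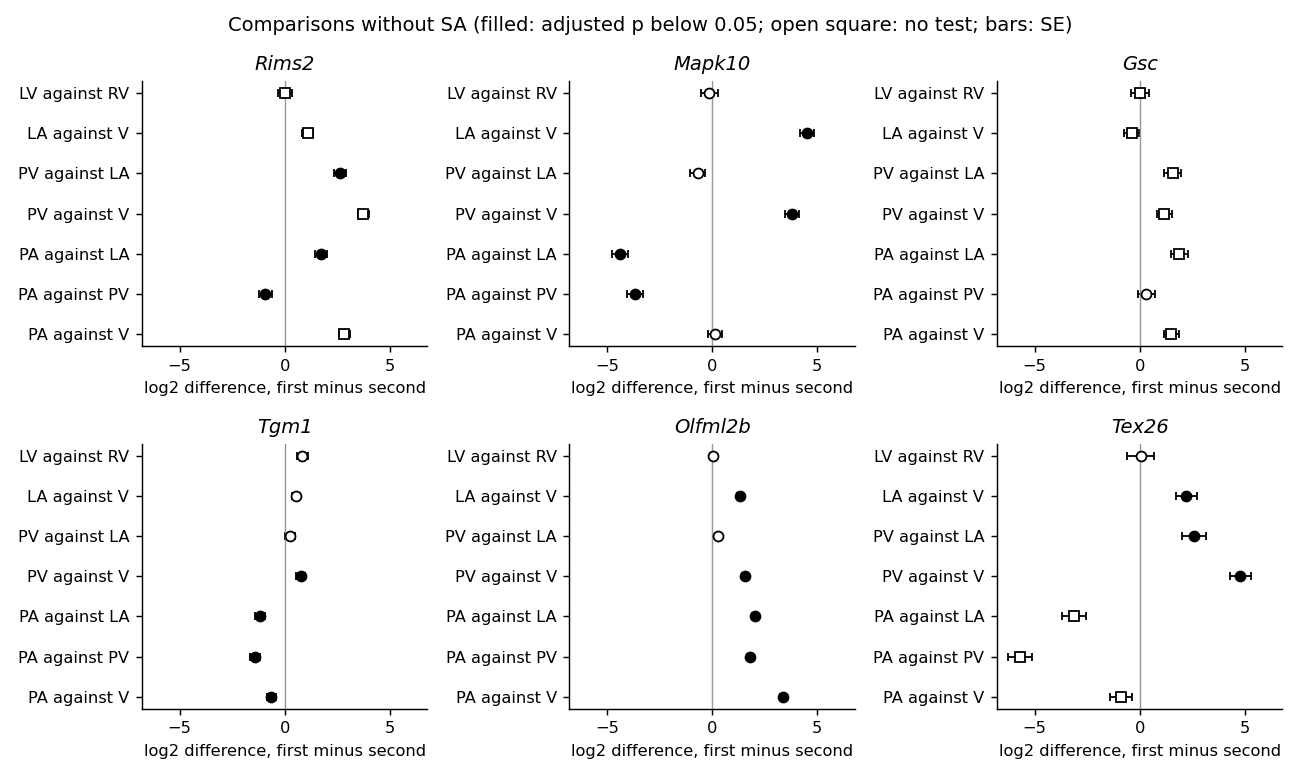
Differences between regions other than SA for the 6 genes, as log2 of the first region minus the second, with the standard error as bars. Filled points have an adjusted p below 0.05, and those of Tex26 against V are not read as tests. Open squares are differences from a region whose values all lay below the filter (V for Rims2, LA and V for Gsc, PA for Tex26), which carry no test. PA lies above LA for Rims2, Gsc and Olfml2b and below it for Mapk10, Tgm1 and Tex26, of which the differences of Gsc and Tex26 carry no test.

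The SPM, a specificity measure that divides the SA mean by the root of the summed squares of the LA, V and SA means, was 0.807 for Rims2, 0.778 for Tex26, 0.761 for Gsc, 0.677 for Tgm1, 0.634 for Mapk10 and 0.615 for Olfml2b. The SA, LA and V values that enter it also chose the genes, so it only describes them. Mapk10 had its higher SPM in LA (0.699). Of the values that enter it, all LA and V arrays of Gsc, all 7 V arrays and 2 LA arrays of Rims2, and all but 1 of the 7 V arrays of Tex26 and of Mapk10 were not well above background. SPM leaves PV and PA out, and Rims2 was also high in both, Tex26 in PV and Olfml2b in PA.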

How the data were processed

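The data are 23 single-color Agilent arrays of rat heart regions. The authors deposited intensities on a linear scale in both sets of files used here. Per the file headers and labels, the scanner output was made with Agilent Feature Extraction 11.0.1.1 and holds background-subtracted, detrended signals, and the authors' normalized intensities are those signals scaled to a common 90th percentile. No further step of theirs was undone.

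The normalized intensities were used for all values. Of 45596 probes, 156 lacked a value on some array and were dropped, and 21047 of the 45440 kept got a symbol by matching unversioned accessions to RefSeq (GRCr8), giving 16544 genes, 3638 of them with more than 1 probe. No array coordinates were used. The highest probe per gene and array was taken, a pseudocount of 1 added and log2 taken. Genes above 4 on at least 1 array (16089) were tested in 1 limma (3.58.1, R 4.3.3, data.table version 1.17.8) fit of 6 regions without covariates, two-sided with Benjamini-Hochberg adjustment and a threshold of 0.05, where the methods used an analysis of variance. V was the mean of the LV and RV coefficients. For the 6 genes, no test is given for a difference from a region whose arrays all lay at or below 4, since passing the filter then had a part in it. The same holds for Tex26 against V, where all V arrays of its brighter probe lay below 4. The procedure was run on simulated data with independent noise on each array. These held no shared animals and no row differences, so they cannot show how the p-values behave with either. Flags for probes well above background came from the scanner output, and a group with none on its arrays gives only a bound. The number of arrays limits the precision.

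Genes of like profile were the 3 with the smallest root mean square difference among genes well above background on every SA array. Of each list, the members' close relatives and up to 3 called genes were named, and some genes are not reported here. The 6 genes, the lists and the rules were chosen with earlier results of these data known. Alternatives were scanner signals at the same percentile, 75th percentile scaling, quantile normalization, normexp (offset 50, on median signals), no filter, a filter for genes well above background, a pseudocount of 16, the probe with the highest mean, slide, row or replicate number as a block, only the regions compared, and each array left out. Promoters came from RefSeq on GRCr8, with an entry for 5 of the 6 genes, Rims2 being the one without. The Tgm1 and Olfml2b windows are not printed. Other tables and the plots were made in Python 3.11.15 using pandas 2.3.3 and, for plots, matplotlib 3.10.9.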

Additional observations from a re-analysis of the deposited data

Results flagged for a closer look

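Of 30 groups of a gene and a region with 4 arrays, 2 held an array far from the other 3 by Dixon's test, which chance does in about 1 of 20 groups. Tgm1 in LA was 7.82 on replicate 4 and between 8.47 and 8.55 on the other LA arrays. Tex26 in LV was 5.84 on replicate 2 and between 3.28 and 3.63 on the other LV arrays, a value that came from the dimmer probe, while the brighter probe was not well above background on that array.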

How the results depend on the processing

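Of 26 differences of the members, 20 kept their direction and their side of the threshold in every alternative run. The 26 leave out 11 given no test but still count those of Tex26 from V. Reversals were confined to dim or small differences: Mapk10 in PA against V was 0.12 and became -0.0078 with quantile normalization and -0.041 with normexp, and ran from -0.18 to 0.33 with 1 array left out, Gsc in PA against PV became -0.052 with quantile normalization, and Tex26 in PA against V became 0.18 with the probe of the highest mean. The number of genes called for LV against RV was 84, and 128 with normexp, 137 when only genes well above background in a region were kept, 13 with only the regions compared, and 41 to 105 with 1 array left out. For SA against PV it was 562, and 67 with only the regions compared and 176 to 566 with 1 array left out (176 without PV replicate 4). For PV against LA it was 2172, and 1264 with only the regions compared. The cause was not tested.

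The SPM in SA moved most with normexp, to 0.665 for Rims2, 0.595 for Mapk10, 0.604 for Gsc, 0.665 for Tgm1, 0.609 for Olfml2b and 0.694 for Tex26. A pseudocount of 16 gave 0.749 for Rims2, 0.619 for Mapk10, 0.652 for Gsc and 0.746 for Tex26, scanner signals gave 0.817 for Rims2 and 0.785 for Tex26, and the probe with the highest mean gave 0.812 for Tex26. Gsc has no value when only genes well above background in a region are kept. The replicate numbers were not shown to pair the samples. Of 55 pairs with the same number, 12 deviated together with a correlation over 0.1 (median -0.04), and of 165 pairs with different numbers 52 did (median 0.001). Among pairs with the same number the median was 0.05 within a row and -0.12 between rows. Since the numbers need not stand for animals, this cannot exclude that samples share them. With the replicate number as a block, 79 genes were called for LV against RV and 466 for SA against PV, and of the members Tgm1 in LA against V was newly called (0.56, adjusted p = 0.0498). That difference was also called with 75th percentile scaling (0.56), quantile normalization (0.57), genes well above background only (0.53) and without any 1 of 5 arrays. Of 44 named differences of list genes, 29 held in every alternative and none of the 44 reversed. Signals around 4 on the log2 scale are near background, which limits Gsc, the ventricular values of Rims2, and the ventricular and PA values of Mapk10 and Tex26.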
